A study of Mus musculus with 4 samples.

Results

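Levels of 8 genes for cytoskeletal proteins of growing neurons are described across the cell states of 4 mouse medulloblastomas: the stathmins Stmn1, Stmn2, Stmn3 and Stmn4, the microtubule-associated genes Dcx (doublecortin) and Mapt (tau), and the collapsin response mediator genes Dpysl3 and Dpysl4. They were taken by symbol, and all 8 were found among the 15002 genes of the count tables. Drop-seq, a droplet method that labels the 3′ end of each captured transcript with a cell barcode and a unique molecular identifier (UMI), was applied to papain-dissociated tumours. Every tumour came from an untreated mouse at postnatal day 16 that carried hGFAP-Cre and SmoM2 together with Prkaa1fl/fl and Prkaa2fl/fl, so there is 1 group of 4 animals, numbered tumours 1 to 4. hGFAP-Cre acts in neural stem and progenitor cells and their progeny and switches on SmoM2, a constantly active Smoothened that drives Sonic hedgehog (SHH) signalling, while it deletes Prkaa1 and Prkaa2, the catalytic subunit genes of the energy sensor AMPK. The study's design also names tumours that kept both genes; no sample used here carries that label, so no comparison with them was made. The comparisons below are between cell states inside these tumours.

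Stathmins bind tubulin dimers and promote the loss of microtubule subunits. Stathmin 1 is cytosolic and common in dividing cells, where its phosphorylation accompanies entry into mitosis, whereas stathmins 2, 3 and 4 are membrane-anchored proteins of neurons. Doublecortin and tau bind and stabilise microtubules in migrating and axon-forming neurons, and the collapsin response mediator proteins (CRMPs) act on tubulin and actin in growth cones. In the cerebellum, the granule cell progenitors from which SHH medulloblastoma arises leave the cell cycle and pass through these stages as they become granule neurons.

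The 4 stathmin genes are paralogs, and the coding stretch they share most closely shows how near their transcripts are to each other. Of all 90-base codon-aligned windows of the Stmn1 coding sequence, the window from coding base 211 to 300 was the most alike in the other 3 genes (GENCODE M21 transcripts, mouse genome GRCm38), and capitals mark bases that differ from Stmn1.
Stmn1: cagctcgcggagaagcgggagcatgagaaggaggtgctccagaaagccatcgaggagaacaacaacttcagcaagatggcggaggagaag
Stmn2: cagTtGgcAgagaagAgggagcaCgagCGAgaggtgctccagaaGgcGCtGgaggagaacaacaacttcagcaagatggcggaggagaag
Stmn3: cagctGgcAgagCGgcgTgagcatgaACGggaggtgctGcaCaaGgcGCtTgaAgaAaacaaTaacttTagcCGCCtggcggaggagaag
Stmn4: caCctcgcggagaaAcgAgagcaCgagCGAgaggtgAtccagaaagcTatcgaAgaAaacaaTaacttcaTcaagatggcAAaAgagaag
Stmn2 differed from Stmn1 at 12 of these bases (86.7% identity), Stmn4 at 16 (82.2%) and Stmn3 at 22 (75.6%). Over the whole transcripts, the longest exact run shared with Stmn1 was 43 bases in Stmn2, 17 in Stmn4 and 16 in Stmn3. The tags come from transcript 3′ ends, and the read length and the treatment of reads that match several genes were not given in the sources used here, so how far paralogs could share counts was not tested.

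In GENCODE M21 (GRCm38), Stmn1 lies on chromosome 4 from base 134468320 to 134473843 on the plus strand. Stmn2 lies on chromosome 3 from 8509360 to 8561606 (plus), Stmn3 on chromosome 2 from 181306459 to 181314500 (minus) and Stmn4 on chromosome 14 from 66344296 to 66361680 (plus). Dcx lies on chromosome X from 143855842 to 143933311 (minus) and Mapt on chromosome 11 from 104231390 to 104332090 (plus). Dpysl4 lies on chromosome 7 from 139086001 to 139102704 (plus), and the position of Dpysl3 is given with its levels.

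RefSeq's promoter table (GRCm38.p6) held 2 of the 8 genes, Stmn3 and Dcx, both of which were at their highest mean level in late neuronal cells. The 250 bases before RefSeq's start site are shown for them, 5′ to 3′ on the gene's strand, with matches to CANNTG in capitals, the hexamer bound by basic helix-loop-helix factors such as the progenitor factor Atoh1 and the neuronal factor Neurod1.
Stmn3, chr2:181314501-181314750, minus strand: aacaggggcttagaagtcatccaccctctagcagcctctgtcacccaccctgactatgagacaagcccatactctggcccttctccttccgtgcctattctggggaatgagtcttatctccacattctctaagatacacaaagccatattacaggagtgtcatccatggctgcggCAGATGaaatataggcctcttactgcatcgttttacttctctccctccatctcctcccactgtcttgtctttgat
Dcx, chrX:143933220-143933469, minus strand: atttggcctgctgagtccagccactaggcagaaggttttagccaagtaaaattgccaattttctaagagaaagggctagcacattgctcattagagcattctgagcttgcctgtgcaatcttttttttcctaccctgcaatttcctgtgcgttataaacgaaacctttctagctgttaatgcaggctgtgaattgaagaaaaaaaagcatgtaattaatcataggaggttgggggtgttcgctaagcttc
The table holds 2 start sites of Dcx, and the one listed first (base 143933219) is shown; it lies within the GENCODE gene, so 92 bases of the window are inside the gene span given above. The Stmn3 window holds 1 match, CAGATG, which starts 75 bases before the start site, and the Dcx window holds 0. CANNTG (its own reverse complement) was found in 66.2% of the 32851 windows of this length in the table, and CAGATG on either strand in 14.4%. These are matches of letters, and binding was not measured.

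Barcodes with at least 500 UMIs were kept as cells: 766, 807, 566 and 1083 in tumours 1 to 4, or 3222 of 6734, with median depths of 749 to 972 UMIs. Mitochondrial transcripts made up 12.1% and 12.7% of UMIs in tumours 1 and 2 and 2.69% and 2.13% in tumours 3 and 4, so the libraries stand apart as 2 pairs; no batch is labelled, and results are also given per pair. A single barcode was shared between any 2 tumours (tumours 2 and 4). Xist, expressed in female cells, had 0, 0, 0 and 1325 UMIs in tumours 1 to 4, and the Y-linked Eif2s3y 141, 83, 45 and 0. Tumour 4 alone thus reads as female, and Dcx lies on chromosome X. The part of sex in the results was not tested. Prkaa1 had 16, 4, 3 and 5 UMIs and Prkaa2 10, 5, 10 and 14 UMIs in tumours 1 to 4. Whether these 3′ tags lie inside the deleted parts was not given in the sources used here, so they do not check the deletion. Scrublet marked 12 cells as doublets, 0.372% of all cells, too few for the caller to be taken as having worked. These cells were left out, and other doublets remain in the states.

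Each cell was thinned at random to 500 UMIs and placed in a state by its UMIs of fixed marker lists, none of which holds any of the 8 genes; the UMI limits were set after the data were seen. Dividing cells (1247) had at least 5 UMIs of S-phase or G2/M genes and at most 4 neuronal marker UMIs. Non-dividing progenitor-like cells (274) had at most 2 of these, at least 2 of SHH-responsive genes such as Gli1 and Atoh1 and at most 3 neuronal marker UMIs. Early neuronal-like cells (260) had at least 5 neuronal UMIs but at most 1 from the late list (the early list holds Nhlh1 and Cntn2), and late neuronal-like cells (300) had at least 3 from the late list of synapse and ion channel genes; both had at most 2 division marker UMIs. They are called early neuronal and late neuronal below. A further 1056 cells met none of these rules, and 73 carried at least 4 markers of glial, vessel, meningeal or immune cells.

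The states are ranges of a marker count. Cells lying exactly on a limit made up 19.7% of dividing, 75.2% of non-dividing, 78.1% of early and 53.7% of late neuronal cells. The median G2/M marker count was 9 UMIs in dividing cells and 0 in the other 3 states, and the median early neuronal count was 1 in dividing and in non-dividing cells, 7 in early and 5 in late neuronal cells. Median depth was 956, 818, 754.5 and 757.5 UMIs in the 4 states in that order. Mean marker counts per thinned cell stayed below 0.05 UMIs in every state for the microglial and endothelial lists. Oligodendrocyte markers, at 0.219 to 0.296 UMIs, and astrocyte or radial glia markers, at 0.354 in non-dividing and 0.2 in early neuronal cells, varied with no order along the states. Markers of other neurons did move along them: unipolar brush or glutamatergic nuclear markers stood at 0.0986, 0.135, 0.242 and 0.307 UMIs and Purkinje markers at 0.0545, 0.0511, 0.0731 and 0.11 in the 4 states in that order, while GABAergic interneuron markers were at 0 to 0.00385. The part of these lists in the results was not tested.

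For each tumour and state the UMIs of all cells were summed without mitochondrial genes, and levels are given as CPM, the gene's share of such a sum scaled to 1000000 UMIs, with an exact 95% Poisson interval where a single count is small. These intervals cover counting error only. Sums were compared between states with edgeR's quasi-likelihood test, with the tumour as a block and Benjamini-Hochberg adjustment over all genes tested, and a gene was called at an adjusted p under 0.05. Cells of a state in 1 tumour are not replicates, so n = 4 tumours throughout. Less RNA of a gene per cell and fewer cells that express it cannot be told apart in the sums.

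Early neuronal cells held more of 5 of the 8 transcripts than non-dividing progenitor-like cells. Stmn2, Stmn4, Dpysl3, Mapt and Stmn1 rose, while Dcx, Stmn3 and Dpysl4 did not pass the test. Over all genes 16.9% of 1786 were called in this comparison, and 8.96% were called higher. The median log2 fold change of the 8 genes was 1.32, against -0.06 over all genes tested. The states were drawn by neuronal marker UMIs, so a higher level of neuronal genes in early neuronal cells is in part built in. The 8 genes were also chosen with earlier results of these data known, and marker genes were not taken out of all genes tested. The contrast with all genes is therefore a description. Without tumour 4, 3 of the 8 were called (Stmn2, Stmn4 and Dpysl3), and the genes called in all went from 301 to 94; without tumour 1, Dcx was called as well. With states taken from Leiden clusters in place of marker counts, Dcx and Stmn3 were called and Mapt was not, so 6 were called, where 10.3% of 3920 genes were called and 5.43% were called higher. None of the 8 genes was used to build the clusters.

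With the marker states, the other 2 steps of the series moved fewer of them. Between dividing and non-dividing progenitor-like cells, none of the 8 was called (7.05% of 1786 genes were, and 2.13% were higher), with 2 at an unadjusted p under 0.05 and 0 called by DESeq2. The 2 were Stmn1, at a log2 fold change of -0.51 (SE 0.17, adjusted p = 0.0711, edgeR), and Dcx, at 0.68 (SE 0.25, adjusted p = 0.0965). Stmn1 was called lower in 5 of 15 alternatives: without tumour 1 (log2 fold change -0.63, adjusted p = 0.0216), in tumours 3 and 4 alone (-0.59, adjusted p = 0.00213), with no filter on low counts (-0.79, adjusted p = 0.0145), with doublets kept (-0.57, adjusted p = 0.0342) and with clusters (-0.52, adjusted p = 0.0121). Dcx was called higher without tumour 2 (0.93, adjusted p = 0.0101) and in tumours 3 and 4 alone (0.88, adjusted p = 0.0241). Between early and late neuronal cells, Mapt alone rose, where 0.952% of genes were called and 0.784% were called higher; this comparison called 17 genes in all. It depended on how the states were drawn: with states from Leiden clusters 466 of 3920 genes were called (11.9%, with 6.51% higher), among them 6 of the 8 as higher (Stmn2, Stmn3, Stmn4, Dcx, Mapt and Dpysl3) and Dpysl4 as lower (-1.16, adjusted p = 0.00223). The late neuronal cluster exceeded other cells by log2 1.72 in early and 1.73 in late markers. The early neuronal cluster did so by 0.87 and 0.06. Late against early clusters is thus a different contrast from that of the marker states. The ends of the series were also compared, a comparison added after the data were seen. In late neuronal against dividing cells 6 of the 8 rose (all but Stmn1 and Dpysl4), where 43.1% of genes were called and 20.6% were called higher, and each of these 6 calls held when any 1 tumour was left out.

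**Figure D1:**
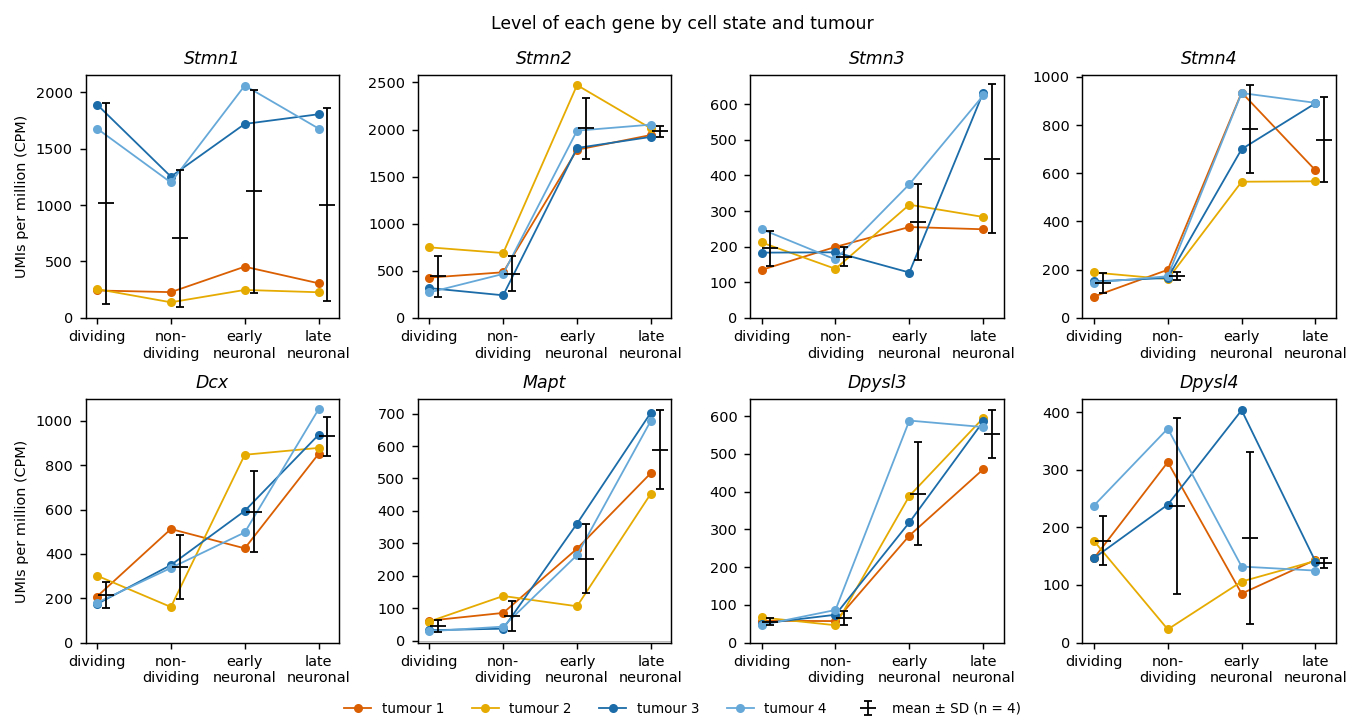
Level of each gene (CPM, y axis) in the 4 cell states (x axis) of tumours 1 to 4 (coloured lines), with the mean ± SD of the 4 tumours in black. Stmn2 and Stmn4 step up between non-dividing and early neuronal cells in every tumour, Dcx and Mapt are highest in late neuronal cells, and the Stmn1 lines of tumours 3 and 4 lie above those of tumours 1 and 2 in all 4 states.

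Stmn1, the cytosolic stathmin, was set apart by tumour more than by state. In dividing cells its level was 242 and 255 CPM in tumours 1 and 2, and 1891 and 1678 CPM in tumours 3 and 4. In non-dividing progenitor-like cells it was 228 and 138 CPM in tumours 1 and 2 (8 and 6 UMIs), and 1252 and 1200 CPM in tumours 3 and 4. Tumours 3 and 4 were high in both states and the 2 pairs did not overlap.

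In early neuronal cells Stmn1 stood at 454, 247, 1719 and 2059 CPM in tumours 1 to 4, above the non-dividing cells of the same tumour in 4 of 4. The log2 fold change was 0.65 (SE 0.19, adjusted p = 0.0153, edgeR). That call was lost without tumour 4 (0.54, adjusted p = 0.31), in tumours 1 and 2 alone (0.87, adjusted p = 0.373), with no filter on low counts (0.68, adjusted p = 0.151) and in cells of at least 1000 UMIs (0.69, adjusted p = 0.144), in 5 of 15 alternatives in all. It held in tumours 3 and 4 alone (0.68, adjusted p = 0.00211). Late neuronal cells held 306, 227, 1805 and 1678 CPM, and the difference from dividing cells was 0.00 on the log2 scale (approximate 95% interval -0.32 to 0.33). The means over tumours were 1017 ± 891 CPM in dividing, 704 ± 604 in non-dividing, 1120 ± 903 in early neuronal and 1004 ± 854 in late neuronal cells (SD, n = 4). The SD over tumours exceeded every difference between these means, whereas within tumours the non-dividing cells lay below the dividing cells in 4 of 4 and below the early neuronal cells in 4 of 4.

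Within dividing cells, Stmn1 was the sole member called between phases. Cells with more G2/M than S-phase marker UMIs held 248, 262, 1966 and 1796 CPM in tumours 1 to 4, and those with more S-phase UMIs held 234, 206, 1706 and 1192 CPM. The G2/M-led cells were higher in 4 of 4 tumours, with a log2 fold change of 0.44 (SE 0.13, adjusted p = 0.0256, edgeR), where 5.63% of 3248 genes were called and 4.37% were called higher. DESeq2 did not call it (0.38, adjusted p = 0.847), nor did the fit without tumour 3 (0.57, adjusted p = 0.0537), without tumour 4 (0.23, adjusted p = 0.758) or in tumours 1 and 2 alone (0.30, adjusted p = 0.912), and the call was lost in 8 of 15 alternatives in all. Stmn2, Stmn3, Stmn4, Dcx and Dpysl4 were tested and not called, and Mapt and Dpysl3 had too few UMIs to pass the filter on low counts.

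Stmn2, a membrane-anchored stathmin of growing axons also known as SCG10, stepped up between progenitor-like and neuronal cells. Dividing cells held 427, 749, 316 and 270 CPM in tumours 1 to 4, and non-dividing progenitor-like cells 484, 688, 239 and 466 CPM. Early neuronal cells held 1785, 2472, 1804 and 1988 CPM, and late neuronal cells 1942, 2012, 1922 and 2052 CPM. Every neuronal value lay above every progenitor-like and dividing value. From non-dividing to early neuronal cells the log2 fold change was 2.07 (4.2-fold, SE 0.21, adjusted p = 6.55e-10, edgeR), and from early to late it was 0.03 (SE 0.18, adjusted p = 0.978), with an interval of -0.31 to 0.38. With states taken from clusters the latter was 0.86 and called (adjusted p = 1.03e-05). The late neuronal values spread least of any state, at 1982 ± 60.7 CPM (SD, n = 4).

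Stmn4, also known as RB3, followed the same course. Dividing cells held 88.5, 188, 151 and 146 CPM and non-dividing progenitor-like cells 199, 160, 166 and 173 CPM. Early neuronal cells held 935, 565, 700 and 933 CPM, and late neuronal cells 612, 567, 891 and 892 CPM. The groups did not overlap between non-dividing and early neuronal cells (log2 fold change 2.18, SE 0.28, adjusted p = 1.09e-07, edgeR) and overlapped between early and late neuronal cells (-0.06, SE 0.22, adjusted p = 0.969). With clusters the latter difference was 0.76 and called (adjusted p = 0.00113). With the tumour means removed, log2 levels of Stmn2 and Stmn4 over the 16 sums had a Pearson r of 0.97, the highest of any pair among the 8 genes; the sums share libraries, so it is a description only.

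Stmn3, or SCLIP, also a neuronal stathmin, differed with the tumour pair in late neuronal cells. Dividing cells held 135, 212, 183 and 249 CPM, non-dividing progenitor-like cells 199, 138, 184 and 164 CPM, and early neuronal cells 255, 318, 127 and 375 CPM. Late neuronal cells held 249 and 283 CPM in tumours 1 and 2 but 633 and 625 CPM in tumours 3 and 4. Late neuronal cells exceeded dividing cells in 4 of 4 tumours, with a log2 fold change of 1.16 (SE 0.25, adjusted p = 0.000157, edgeR), although the ranges of the 2 states overlapped. The difference was 0.66 in tumours 1 and 2 alone (adjusted p = 0.229). The step from non-dividing to early neuronal cells was 0.68 (SE 0.35, adjusted p = 0.189), and that from early to late was 0.76 (SE 0.3, adjusted p = 0.361); in tumours 3 and 4 alone the latter was 1.21 (adjusted p = 0.0414) and in tumours 1 and 2 alone -0.02 (adjusted p = 0.99). With clusters both steps were called, at 0.85 (adjusted p = 0.0148) and 0.62 (adjusted p = 0.0382).

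Dcx, doublecortin, which marks migrating immature neurons, was higher at each later state in the means over tumours. Dividing cells held 208, 302, 174 and 180 CPM and non-dividing progenitor-like cells 512, 160, 350 and 337 CPM. Early neuronal cells held 425, 847, 594 and 497 CPM, and late neuronal cells 851, 878, 937 and 1053 CPM. The late neuronal values lay above all values of the other states, and tumours 1 and 2 fell on opposite sides of the others in both middle states.

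The 3 single steps of Dcx did not pass the test: 0.68 (given above), 0.70 from non-dividing to early neuronal cells (SE 0.27, adjusted p = 0.0639, edgeR) and 0.75 from early to late (SE 0.23, adjusted p = 0.13). Without tumour 1 the middle step was called (0.98, adjusted p = 0.02), and without tumour 2 the last step was called (0.96, adjusted p = 0.0192), as it was in tumours 3 and 4 alone (0.95, adjusted p = 0.025). With clusters the middle step (1.01, adjusted p = 6.45e-05) and the last (0.82, adjusted p = 0.000103) were both called. Other alternatives gave smaller steps: the middle step was 0.38 without tumour 2 (adjusted p = 0.406), and the first was 0.47 without tumour 1 (adjusted p = 0.463) and 0.23 with clusters (adjusted p = 0.578). Over the whole series, late neuronal against dividing cells, Dcx rose 4.38-fold (log2 2.13, SE 0.21, adjusted p = 2.05e-11), from 216 ± 59.2 to 930 ± 89.4 CPM (SD, n = 4).

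Mapt, which encodes tau, the protein that stabilises axonal microtubules, was among the genes with the largest folds between the ends of the series. Dividing cells held 61.6, 58.8, 32 and 28.9 CPM and non-dividing progenitor-like cells 85.4, 138, 36.8 and 43.2 CPM, the latter from 2 to 6 UMIs per tumour. Cells of the early neuronal state held 283, 106, 361 and 264 CPM, and tumour 2, with 3 UMIs there (interval 21.8 to 310 CPM), was the one below its non-dividing value. Late neuronal cells held 517, 453, 703 and 678 CPM, above all early neuronal values.

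The rise of Mapt from non-dividing to early neuronal cells was 1.95 on the log2 scale (SE 0.44, adjusted p = 0.00121, edgeR). It was not called without tumour 4 (1.53, adjusted p = 0.0905), in tumours 1 and 2 alone (0.68, adjusted p = 0.667, against 2.84 and adjusted p = 0.000168 in tumours 3 and 4 alone) or with states taken from clusters (0.49, adjusted p = 0.452). The further rise to late neuronal cells was 1.16 (2.23-fold, SE 0.29, adjusted p = 0.033), seen in 4 of 4 tumours. It missed the threshold without tumour 1 (1.29, adjusted p = 0.0805), without tumour 3 (1.24, adjusted p = 0.146), without tumour 4 (1.15, adjusted p = 0.295) and with DESeq2 (1.23, adjusted p = 0.0646), and in 11 of 15 alternatives in all; with clusters it was 2.43 (adjusted p = 3.68e-11). Late neuronal cells exceeded dividing cells 13.2-fold (log2 3.72, SE 0.28, adjusted p = 1.71e-14), with 2.98 in tumours 1 and 2 alone and 4.46 in tumours 3 and 4 alone.

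Dpysl3 (CRMP4), which acts on actin bundles and microtubules in growth cones, was low in dividing and in non-dividing cells. Its gene spans bases 43320984 to 43438286 of chromosome 18 (minus strand, GENCODE M21, GRCm38). Dividing cells held 57.7, 66.6, 50.4 and 46.6 CPM and non-dividing progenitor-like cells 56.9, 45.9, 73.6 and 86.3 CPM, from 2 to 10 UMIs per tumour. Cells of the early neuronal state held 283, 388, 318 and 588 CPM, and late neuronal cells 459, 595, 586 and 571 CPM. The neuronal states did not overlap with the others. The rise from non-dividing to early neuronal cells was 5.74-fold (log2 2.52, SE 0.35, adjusted p = 8.79e-07, edgeR), and the difference from early to late was 0.44 (SE 0.25, adjusted p = 0.578). With clusters the 2 steps were 1.72 (adjusted p = 6.45e-05) and 1.78 (adjusted p = 1.5e-09), both called. Over the 15 alternatives the step from non-dividing to early neuronal cells ranged from 1.72 to 3.61. Late neuronal cells exceeded dividing cells 10.2-fold (log2 3.35, SE 0.25, adjusted p = 1.39e-14).

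Dpysl4 (CRMP3), the other CRMP gene of the 8, did not share this course and was called in none of the 5 comparisons of marker states. Dividing cells held 146, 176, 146 and 238 CPM and non-dividing progenitor-like cells 313, 22.9, 239 and 371 CPM, with tumour 2 low on 1 UMI. Cells of the early neuronal state held 85, 106, 403 and 132 CPM, with tumour 3 high on 19 UMIs, and late neuronal cells 144, 142, 141 and 125 CPM. Late neuronal values lay below every dividing value (0 of 4 tumours higher), yet the fitted difference was -0.37 (SE 0.36, adjusted p = 0.428, edgeR), with an interval of -1.08 to 0.33. With states taken from clusters it was called lower (-0.89, adjusted p = 0.00262). Its level did not follow Dpysl3 over the 16 sums (Pearson r = -0.16, tumour means removed), whereas Dpysl3 followed Stmn2 (r = 0.96), Stmn4 (r = 0.94) and Mapt and Dcx (r = 0.89 for both).

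**Figure D2:**
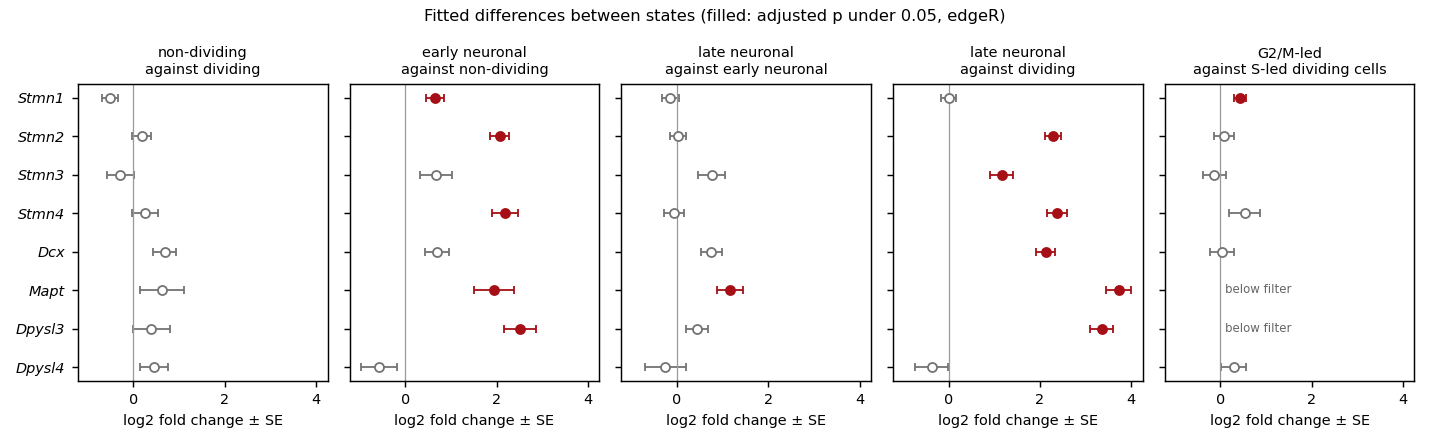
Fitted log2 fold change ± SE (x axis) of each gene (rows) in the 5 comparisons of marker states (panels), with filled red points where the adjusted p was under 0.05. The calls lie mostly in the step to early neuronal cells and in late neuronal against dividing cells, where Mapt (3.72) and Dpysl3 (3.35) lie farthest to the right and Stmn1 (0.00) and Dpysl4 (-0.37) near or below 0.

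The states leave out cells between their limits, so the genes were also read along the neuronal marker count itself, in cells with at most 2 division marker UMIs. Each of 5 bins held 25 to 101 cells per tumour. The bins hold the cells of the 3 states outside division and cells outside every state, so they are not independent of the states and are given as a description. From the bin of 0 to 1 marker UMIs to that of 9 or more, mean Dcx levels were 236 ± 116, 382 ± 112, 555 ± 132, 696 ± 117 and 936 ± 52.3 CPM (SD, n = 4). Mean Stmn2 levels were 404 ± 221, 688 ± 202, 1431 ± 246, 2013 ± 191 and 2026 ± 175 CPM. Stmn2 had thus levelled at 6 to 8 marker UMIs, within the spread over tumours, whereas Dcx was higher again in the last bin in 4 of 4 tumours.

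Dpysl3 went from 48.7 ± 41.4 CPM in the first bin to 563 ± 98.8 in the last, and Stmn4 from 171 ± 86.1 to 844 ± 193 CPM. Mapt stood at 73.9 ± 59.4 and 82.9 ± 42.7 CPM in the first 2 bins and at 309 ± 126, 422 ± 181 and 431 ± 52.9 CPM in the next 3. Dpysl4 stood at 187 ± 136 CPM in the first bin and 122 ± 84.1 in the last, with ranges that overlapped. Stmn1 in tumours 3 and 4 was 1160 and 1103 CPM in the first bin and 1768 and 1803 CPM in the last, while in tumours 1 and 2 it was 374 and 145 CPM in the first and 344 and 174 CPM in the last.

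**Figure D3:**
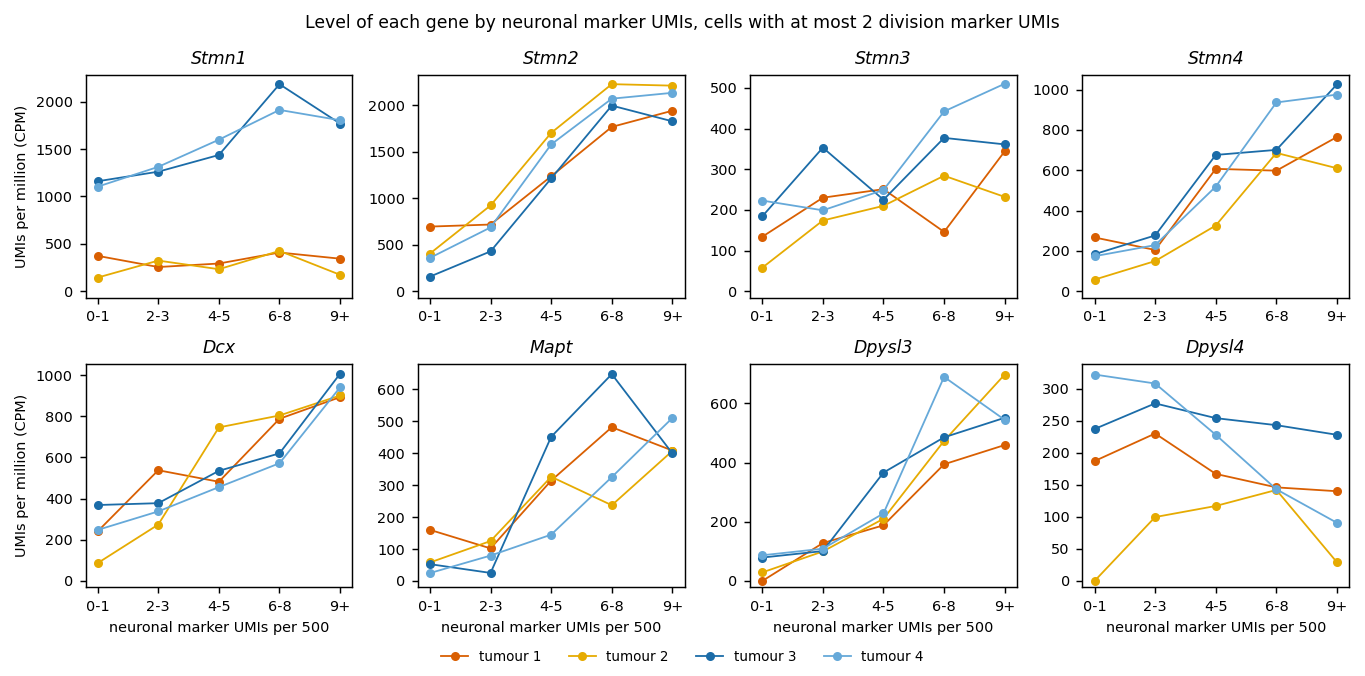
Level of each gene (CPM, y axis) by the number of neuronal marker UMIs per 500 (x axis, 5 bins) in cells with at most 2 division marker UMIs, with 1 line per tumour. Stmn2 levels off from 6 to 8 markers, Dcx is highest in the last bin (936 ± 52.3 CPM), and the Dpysl4 mean is lowest there (122 ± 84.1 CPM).

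Along the division marker count, Dpysl3 and Mapt were lower with more such UMIs. These bins set no limit on neuronal markers, so that of 0 to 2 holds the early and late neuronal cells. They are not independent of the states and are a description. In dividing and non-dividing progenitor-like cells, both low in neuronal markers, mean Dpysl3 was 55.3 and 65.7 CPM and Mapt 45.3 and 75.7 CPM. Neither difference was called. In cells with 0 to 2 division marker UMIs, Dpysl3 stood at 311 ± 23.1 CPM, with 3 to 4 at 201 ± 92.4, with 5 to 9 at 101 ± 47.7 and with 20 or more at 47.9 ± 9.57 CPM (SD, n = 4). Mapt stood at 275 ± 57 CPM with 0 to 2 such UMIs and at 47.7 ± 17.4 with 20 or more. Stmn1 stood at 929 ± 721 and 934 ± 843 CPM in the same bins, and Dpysl4 at 179 ± 72.6 and 247 ± 49.9 CPM.

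Counts per cell were sparse. After thinning to 500 UMIs, a Stmn2 UMI was found in 57.6% ± 7.49 of late neuronal cells (mean of 4 tumours, SD) and in 15.9% ± 6.79 of dividing cells. As a measure of free RNA, the same share was taken in 47 microglial, endothelial, mural and fibroblast cells, which are not neuronal; there it was 12.8% (exact Clopper-Pearson 95% interval 4.83 to 25.7). Those cells had a median of 1218 UMIs before thinning, against 956 in dividing and 757.5 in late neuronal cells. They came unequally from tumours 1 to 4 (18, 17, 4 and 8 cells), so the pooled share mostly reflects tumours 1 and 2, and it sets no background for tumours 3 and 4 on their own. The mean shares of Stmn2 in dividing and non-dividing cells (16.3% ± 8.89) lay inside that wide interval (tumour 2 alone, at 28.6% of non-dividing cells, lay above it). At this depth they could not be told apart from the share in the 47 cells, which does not show that expression is absent.

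For Stmn4 the share was 6.38% (1.34 to 17.5) in the 47 cells, 6.51% ± 3.29 in dividing cells, 7.03% ± 2.17 in non-dividing cells, 26.2% ± 7.96 in early and 29.8% ± 9.23 in late neuronal cells. Its shares in dividing and non-dividing cells likewise could not be told apart from that in the 47 cells. Mapt was found in 2.13% (0.0539 to 11.3) of the 47 cells, 2.41% ± 0.768 of dividing, 9.47% ± 1.99 of early and 17.4% ± 2.57 of late neuronal cells, of which the last mean alone lay above the interval (tumour 3, at 11.7% of early neuronal cells, also did). Its level was 122 ± 145 CPM in the 47 cells (7 UMIs) and 45.3 ± 17.2 CPM in dividing cells. The fold of Mapt over dividing cells thus rests on a level that could not be told apart from that of the 47 cells. Dcx and Dpysl3 were found in 0 of the 47, which allows a share of up to 6.38% by the limit of 3 cells and 7.55% by the exact interval; the Dpysl3 shares in dividing and non-dividing cells lie below both limits. Dcx was found in 8.45% ± 2.27 of dividing, 13.1% ± 7.51 of non-dividing, 21.8% ± 6.6 of early and 34.1% ± 5.73 of late neuronal cells, and Dpysl3 in 2.2% ± 0.307, 1.96% ± 1.38, 15.8% ± 7.21 and 23.2% ± 9.93.

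Stmn1 was found in 4.26% (0.52 to 14.5) of the 47 cells, and in dividing cells in 10.8%, 10.6%, 56.9% and 51% in tumours 1 to 4. The values of tumours 1 and 2 lie inside that interval. So do their non-dividing (10.2% and 8.16%) and late neuronal values (11.5% and 7.69%). At this depth these could not be told apart from the share in the 47 cells. Of their early neuronal values, 23.4% in tumour 1 lies above the interval and 7.69% in tumour 2 inside it. In the background cells of tumours 3 and 4 Stmn1 was found in 0% of 4 and 12.5% of 8 cells, too few to set a background for those libraries. Stmn3 was found in 4.26% (0.52 to 14.5) of the 47 cells, 8.97% ± 2.79 of dividing and 21.3% ± 13.7 of late neuronal cells, from 7.69% and 11.5% in tumours 1 and 2 to 35% and 31% in tumours 3 and 4. Dpysl4 was found in 2.13% (0.0539 to 11.3) of the 47 cells, with 8.07% ± 2.73 of dividing, 10.4% ± 7.67 of non-dividing, 5.62% ± 4.41 of early and 5.8% ± 1.83 of late neuronal cells. These means lie inside that interval, while 4 single values lie above it: 16.3% and 16.1% of non-dividing cells in tumours 1 and 4, 12.1% of dividing cells in tumour 4 and 11.7% of early neuronal cells in tumour 3. Before thinning, the pooled shares were 27.8% in dividing, 67.3% in late neuronal and 19.1% in the 47 cells for Stmn2, and in the same order 17.2%, 44.3% and 2.13% for Dcx and 4.25%, 30.7% and 6.38% for Mapt.

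The genes were met together more often in neuronal cells. The mean number of the 8 genes with a UMI in a thinned cell was 0.848 ± 0.233 in dividing, 0.861 ± 0.158 in non-dividing, 1.8 ± 0.369 in early neuronal and 2.2 ± 0.631 in late neuronal cells (SD, n = 4). Of the pooled late neuronal cells 35.3% (106 of 300) held 3 or more of them, against 4.49% (56 of 1247) of dividing cells. In single tumours the mean number was 0.569, 0.742, 1.03 and 1.05 in dividing and 1.59, 1.73, 2.68 and 2.81 in late neuronal cells. Of the 47 background cells 0 held 3 or more, which allows up to 6.38% by the limit of 3 cells and 7.55% by the exact interval, so a difference from dividing cells was not detectable.

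**Figure D4:**
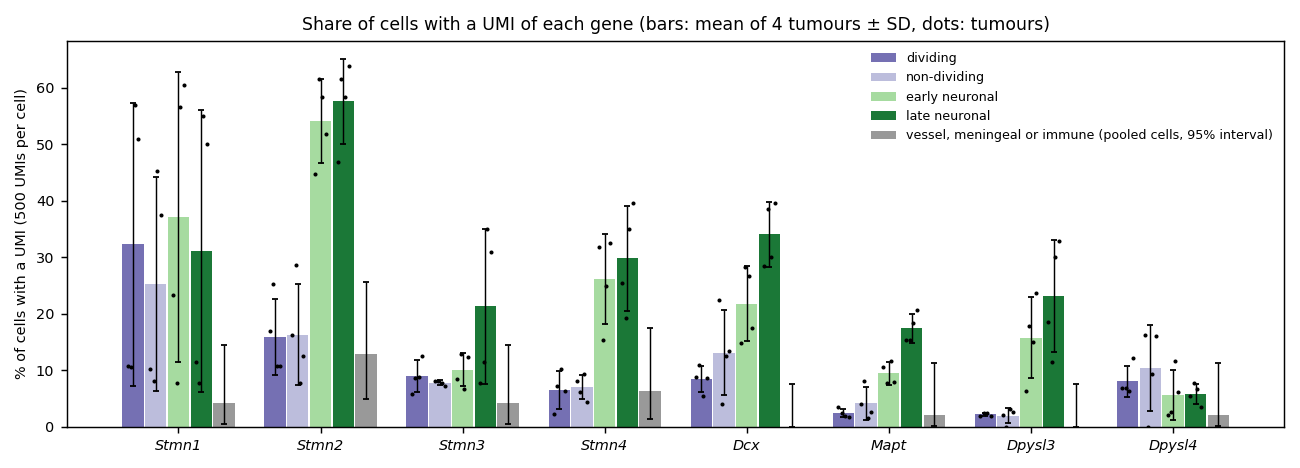
Share of cells with a UMI of each gene after thinning to 500 UMIs per cell (y axis, %), as the mean ± SD of 4 tumours (coloured bars, dots for tumours), beside the pooled 47 vessel, meningeal and immune cells with their 95% interval (grey). Stmn2 and Stmn4 in dividing and non-dividing cells have means within the grey interval, and their neuronal bars stand above its interval.

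Over whole tumours, Stmn1 had the largest gap of the 8 genes between the library pairs. It stood at 272 and 266 CPM in tumours 1 and 2 (183 and 168 UMIs) and at 1634 and 1600 CPM in tumours 3 and 4 (841 and 1963 UMIs), a ratio of 6.02. Among 4405 genes with a mean of at least 50 CPM and a UMI in every tumour, 1.11% had a higher ratio. The other 7 genes had ratios from 0.653 (Stmn2) to 1.46 (Dpysl4). Within states the Stmn1 ratio was 7.18 in dividing, 6.71 in non-dividing, 5.39 in early and 6.54 in late neuronal cells, so the gap was present in every state.

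Other properties moved with the same split of the libraries. The mitochondrial share was higher in tumours 1 and 2 (given above), and the log2 ratio of tumours 3 and 4 over 1 and 2 was lower for genes with longer transcripts: its median was 0.88 in the 1029 genes with the shortest coding transcripts (371 to 1991 bases, longest transcript of each gene) and -0.75 in the 1029 with the longest (from 5200 bases), of 4115 genes. Stmn1, with 1060 bases, Stmn3, with 1136, and Stmn4, with 1361, are in the shortest group, and on the same log2 scale they were at 2.59, 0.47 and 0.23, of which the last 2 lie below the group's median. Stmn2 (2073 bases) was at -0.62, below the median of 0.22 of the next group. Dcx (9074 bases), Mapt (5253) and Dpysl3 (5479) are in the longest group and were at -0.35, -0.25 and -0.18, above its median. The part of transcript length, mitochondrial share or preparation in the Stmn1 gap was not tested, and with 2 libraries on each side an exact permutation test cannot give a two-sided p below 0.333.

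**Figure D5:**
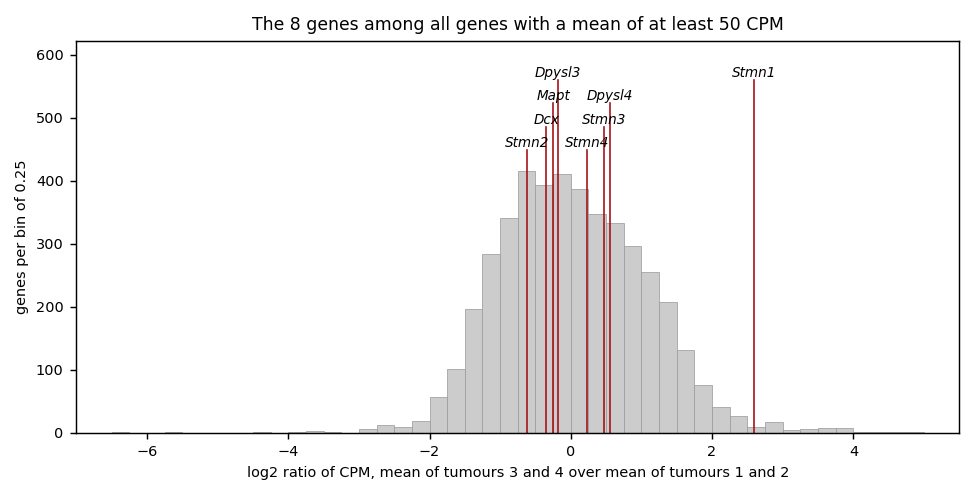
Number of genes (y axis) by the log2 ratio of their mean CPM in tumours 3 and 4 over tumours 1 and 2 (x axis), for 4405 genes, with the 8 genes as red lines. Stmn1, at 2.59, lies in the right tail, and the other 7 lie between -0.62 (Stmn2) and 0.55 (Dpysl4).

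Beside the 8 genes, 6 lists of related genes held 77 genes, of which 74 were in the tables. In early neuronal against non-dividing cells 16 of the 32 listed genes tested rose and 1 fell, where 8.96% of all genes were called higher. These lists too were chosen with earlier results known, and the states were drawn by neuronal markers. Of 12 growth cone and neurite genes tested 9 rose (median log2 fold change 0.95, against -0.06 over all genes), among them Gap43, the growth-associated membrane protein of growth cones, at 1.94 (SE 0.21, adjusted p = 3.41e-09, edgeR), from 490 ± 243 to 1969 ± 1180 CPM. Dbn1, drebrin, an actin-binding protein, was at 1.58 (SE 0.41, adjusted p = 0.00466). Of 12 structural and plus-end microtubule genes 5 rose, namely Map1b, Map1lc3a, Map2, Map6 and Clasp2, and 0 fell. Dclk1, a kinase with doublecortin domains, had a log2 fold change of -1.30 (SE 0.35, adjusted p = 0.00681) and fell from 232 ± 60.8 to 91.3 ± 34.1 CPM; without tumour 4 it was at -1.55 and not called (adjusted p = 0.0741), nor was it in tumours 3 and 4 alone (-1.12, adjusted p = 0.0599) or, in all, in 5 of 12 alternatives.

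Among genes that act on these proteins, 2 of the 4 kinases and partners tested rose in early neuronal cells (8.96% of all genes did), Cdk5r1, the activator of Cdk5, and Gsk3b, both known to drive phosphorylation of tau and of CRMPs. In non-dividing against dividing cells 1 of the 32 listed genes tested rose and 1 fell, near the 7.05% of all genes called. Crmp1, a CRMP of neurons, rose by 0.79 (SE 0.2, adjusted p = 0.0076, edgeR), and this call was lost without tumour 3 (0.58, adjusted p = 0.186), without tumour 4 (0.76, adjusted p = 0.125), with clusters (0.22, adjusted p = 0.522), in tumours 1 and 2 alone (0.55, adjusted p = 0.335), and in 7 of 15 alternatives in all. Ckap5, a microtubule polymerase of the mitotic spindle, fell, with a log2 fold change of -1.56 (SE 0.24, adjusted p = 2.54e-06). No listed gene was called between early and late neuronal cells, where 32 were tested and 0.952% of all genes were called; 0 of 32 is near that share.

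In late neuronal against dividing cells 22 of the 32 rose and 1 fell, where 20.6% of all genes were called higher. Map6, a microtubule-stabilising protein, was at 2.51 (SE 0.36, adjusted p = 1.57e-07, edgeR) and at 1.76 without tumour 1 (adjusted p = 0.00532), and Rtn1, a reticulon of the endoplasmic reticulum, was at 2.07 (SE 0.17, adjusted p = 1.53e-13). Ckap5 fell, with a log2 fold change of -0.92 (SE 0.22, adjusted p = 0.000609), and in tumours 3 and 4 alone it was not called (-0.51, adjusted p = 0.119), one of 3 losses in 15 alternatives. Between phases, 6 of 39 listed genes tested rose in G2/M-led cells, where 4.37% of all genes were called higher, with Kif2c, a microtubule-depolymerising kinesin of mitosis, at 2.83 (SE 0.5, adjusted p = 3.57e-05) and Ckap5 at 1.88 (SE 0.2, adjusted p = 1.59e-10). In tumours 1 and 2 alone Kif2c was at 3.1 and not called (adjusted p = 0.18).

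Genes with the most similar pattern were sought over the 16 sums of tumour and state, with tumour means removed, among 1727 genes of at least 50 CPM that are neither markers nor among the 8. Stmn2 was closest to Map1b (Pearson r = 0.99), Ank3 and Chgb (both 0.98), and Stmn4 to Tuba1a and Cadm3 (both 0.98) and Rtn1 (0.97). Dpysl3 was closest to Ank2 (0.98), Tuba1a and Celf2 (both 0.97), Dcx to Ina and Ankrd12 (both 0.96) and Malat1 (0.94), and Mapt to Thra (0.97), Rab6b and St18 (both 0.94). Stmn3 was closest to Phf20l1 (0.94), Id2 (0.92) and Atp2b1 (0.88). Stmn1 and Dpysl4 had no gene above 0.82: Stmn1 was closest to Fnbp4 (0.82), Tnrc6c and Chd8 (both 0.75), and Dpysl4 to Psmd7 (0.81), Psmc2 and Cdk2ap1 (both 0.79). The sums share cells' libraries and depth, and these values carry no test.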

How the data were processed

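Drop-seq libraries of 4 tumours were analysed; the members and gene lists were chosen with earlier results of these data known. The authors deposited whole-number UMI counts per gene and cell barcode; the submitters' processing notes name STAR and mm10, and read length, barcode filters and treatment of multi-matching reads were not given in the sources used here. A further 6 tables with 11203 cell columns matched no sample label and were not used. Barcodes with at least 500 UMIs were kept, thinned to 500 UMIs for assigning states and for shares, and summed unthinned by tumour and state. Sums were fitted in edgeR 4.0.16 (R 4.3.3; TMM, filterByExpr, quasi-likelihood test, tumour as a block), with all 4 states in 1 fit and the 2 phases in another; the alternatives used DESeq2 1.42.0, scanpy 1.11.5 and the settings named in the closing section. The comparison of late neuronal with dividing cells was added after the data were seen. Approximate 95% intervals were taken from the fitted SE.

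The block rests on both sums coming from 1 animal: deviations from state means correlated at r = 0.32 to 0.81 between sums of the same tumour (24 pairs, median 0.6) and at -0.75 to 0.69 between tumours (72 pairs, median -0.45), over 1727 genes. Removing state means over 4 tumours lowers the correlations between tumours by itself, so their negative median is in part built in. Tested on simulated data for early neuronal against non-dividing cells (1512 genes tested, 172 changed), the fit recovered 98.8% of 4-fold and 64.4% of 2-fold changes, and 5.41% of its calls were false. The simulated sums shared a mean profile and a common spread, with no tumour effect. These rates therefore do not cover the differences between the real tumours. Genes named were the 8 genes; from the 6 lists, the called genes with the 2 largest changes in each direction; and the 3 most similar genes of each of the 8. The further genes of the lists are named as members of a count. The 4 libraries are labelled as separate samples; nothing states that the animals came from separate litters. Gene positions and transcripts come from GENCODE M21 and promoters from RefSeq.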

Additional observations from a re-analysis of the deposited data

Results flagged for a closer look

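Dpysl4 gave both values that stood far from the other tumours of a state by Dixon's test for 4 samples, in 32 groups of 8 genes by 4 states. In early neuronal cells tumour 3 held 403 CPM, against 85 to 132 CPM in the other 3. In late neuronal cells tumour 4 held 125 CPM, against 141 to 144 CPM in the other 3. Chance flags about 1 in 20 groups, and both values rest on few UMIs.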

How the results depend on the processing

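Each fit was repeated under 15 alternatives. Stmn2, Stmn4 and Dpysl3 stayed called in all 15 for early neuronal against non-dividing cells, and Stmn2, Stmn4, Dcx, Mapt and Dpysl3 in all 15 for late neuronal against dividing cells. Direction changed for some members, all uncalled except 1. In non-dividing against dividing cells, Stmn2 was at -0.19 with no filter on low counts, -0.11 without tumour 4 (range over tumours left out -0.11 to 0.23) and -0.22 with states from Leiden clusters; Stmn4 was at -0.07 with no filter and -0.33 with clusters. Stmn3 was at 0.01 in tumours 1 and 2 alone, and Dpysl3 at -0.23 there, at -0.51 with 1 more marker UMI required and at -0.17 with clusters. In early neuronal against non-dividing cells, Dpysl4 was at 0.08 without tumour 4 (range -1.26 to 0.08) and 0.24 with clusters. In late against early neuronal cells, Stmn1 was at 0.12 with clusters, Stmn2 at -0.02 in cells of at least 1000 UMIs, Stmn3 at -0.02 in tumours 1 and 2 alone and Dpysl4 at 0.43 without tumour 3 (range -0.50 to 0.43). Stmn4 was at 0.12 there without tumour 1 (range -0.20 to 0.12), 0.13 in tumours 3 and 4 alone, 0.01 with doublets kept and 0.76 with clusters, the last called (adjusted p = 0.00113, edgeR; range over its alternatives 0.00113 to 1). Stmn1 in late neuronal against dividing cells, at 0.00, was at -0.03 with DESeq2, -0.31 with no filter, -0.03 in tumours 3 and 4 alone, -0.12 with 1 more marker UMI and at -0.05, -0.02 and -0.06 without tumour 1, 2 or 4 (range -0.06 to 0.01). Between phases, Stmn2 was at -0.26 without tumour 2 (range -0.26 to 0.45), -0.50 in tumours 3 and 4 alone and -0.17 with a mitochondrial share of at most 10%. Stmn3 was at 0.07 with no filter, 0.01 without tumour 2 (range -0.24 to 0.01) and 0.07 with the mitochondrial limit. Dcx was at -0.12 without tumour 1 (range -0.12 to 0.29), -0.19 in tumours 3 and 4 alone, -0.21 with the mitochondrial limit, -0.01 with doublets kept and -0.06 with 1 more marker UMI, and Dpysl4 at -0.04 in tumours 1 and 2 alone. The cause was not tested.

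Counts of called genes over all genes depended on the setting. For non-dividing against dividing cells, 126 became 356 with no filter, 75 in tumours 1 and 2 alone, 194 in tumours 3 and 4 alone, 35 in cells of at least 1000 UMIs, 67 with 1 more marker UMI, 260 with clusters, and 60 to 165 when 1 tumour was left out. Of the 126, 38 were called higher, and these became 2 without tumour 4 and 0 without the tumour block. For early neuronal against non-dividing cells, 301 became 67 in tumours 1 and 2 alone, 86 in cells of at least 1000 UMIs and 94 to 278 when 1 tumour was left out. For late against early neuronal cells, 17 became 8 with DESeq2, 5 in tumours 1 and 2, 58 in tumours 3 and 4, 2 in cells of at least 1000 UMIs, 466 with clusters and 7 to 28 when 1 tumour was left out. For late neuronal against dividing cells, 769 became 1635 with no filter, 364 in tumours 1 and 2, 259 in cells of at least 1000 UMIs, 464 with 1 more marker UMI, 1724 with clusters and 464 to 957 when 1 tumour was left out. Between phases, 183 became 94 with DESeq2, 74 in tumours 1 and 2, 110 in cells of at least 1000 UMIs and 103 to 197 when 1 tumour was left out. The lowest of these left out tumour 4 in each comparison but late against early neuronal, where it was tumour 3. Without the tumour block, the counts in the same order were 44, 43, 2, 282 and 41; Stmn1 in late neuronal against dividing cells was then at -0.05, and Stmn1 (adjusted p = 0.891), Gap43 (0.123), Dbn1 (0.346) and Dclk1 (0.0989) lost their calls in early neuronal cells. Mapt in late against early neuronal cells (0.999), Crmp1 (0.296) in non-dividing cells, Ckap5 (0.0533) in late neuronal against dividing cells and Stmn1 (1) between phases lost theirs too.

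Depth limits the low genes: Mapt and Dpysl3 had 16 and 18 UMIs in all non-dividing cells, so their folds rest on few counts. State limits were set after the data were seen, many cells lie on them, and 1056 cells lie outside every state.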

Other observations

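Cells outside every state held intermediate mean levels of most of the 8 genes. In the 1056 such cells Stmn2 stood at 982 ± 299 CPM (SD, n = 4 tumours), Stmn4 at 395 ± 66.8, Dcx at 471 ± 117, Mapt at 187 ± 52.9 and Dpysl3 at 220 ± 53.9 CPM, each between its dividing and late neuronal means. Dpysl4 stood at 175 ± 36.3 CPM.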
